A study of Rattus norvegicus with 10 samples.

Results

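The 8 mRNAs described here are Nr3c1, which encodes the glucocorticoid receptor, and 7 genes known to respond to it: Fkbp5, Tsc22d3, Sgk1, Zbtb16, Pdk4, Cdkn1a and Errfi1. They were found on the array by the RefSeq mRNA accession of each probe, which gave exactly 1 probe and 1 spot for each of the 8, among 24684 probes in all. All 8 passed the filter on dim probes that left 19928 RNAs for testing, and all 8 were well above background on all 5 arrays of each group. The tissue was the lumbar enlargement of the spinal cord of adult male Sprague Dawley rats of 240 to 260 g. Rats of the morphine tolerance (MT) group, numbered 1 to 5, had received 10 μg of morphine in 10 μl into the spinal fluid 2 times a day for 7 days. Rats of the normal saline (NS) group, numbered 6 to 10, had received 10 μl of saline on the same schedule, so both groups shared the injections and the handling. By the study's methods the cords were collected on the eighth day, 1 h after a morning injection, under pentobarbital. The rats are a model of repeated spinal morphine without nerve injury, and each array holds the RNA of 1 rat.

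Glucocorticoids such as corticosterone are released from the adrenal cortex in a daily rhythm and under stress, and they enter cells and bind the glucocorticoid receptor. The receptor is held ready by heat shock chaperones, moves to the nucleus once it binds the hormone, and raises or lowers the transcription of its target genes. In the nervous system, astrocytes, oligodendrocytes and endothelial cells are known for strong transcriptional responses to the hormone. Several of the 7 target genes have other regulators too, among them p53 for Cdkn1a, fasting signals for Pdk4 and growth factors for Errfi1.

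The receptor binds DNA as a dimer at a pair of short inverted repeats, whose core can be written ACANNNTGT, with the stronger repeat written AGAACA. RefSeq promoter windows of the GRCr8 build, each with 250 bases before and 50 bases after a transcript start, were at hand for 7 of the 8 genes, in 12 windows, and not for Zbtb16. On both strands, ACANNNTGT was found in 1 of the 12 windows, beside 6.86% of all 33469 windows of that length, and AGAACA in 0 of 12, beside 20.7%. The match lay 183 bases before one of the starts of Tsc22d3. That window is shown because it holds the only match, with the match in capitals, and the windows of Fkbp5 and Cdkn1a are shown because those mRNAs followed each other most closely across rats. Receptor sites of Fkbp5 are known mainly from its introns, and the absence of these letters says only that they are not in these windows. All 3 are written 5′ to 3′ on the strand of the gene.
Tsc22d3, chrX:109065381-109065680, minus strand: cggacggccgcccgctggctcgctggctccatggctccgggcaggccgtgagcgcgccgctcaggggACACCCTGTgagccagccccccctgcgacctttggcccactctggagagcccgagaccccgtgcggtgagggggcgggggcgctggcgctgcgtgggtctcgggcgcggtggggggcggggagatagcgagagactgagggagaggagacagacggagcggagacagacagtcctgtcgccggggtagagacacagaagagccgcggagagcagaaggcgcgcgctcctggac
Fkbp5, chr20:6543506-6543805, minus strand: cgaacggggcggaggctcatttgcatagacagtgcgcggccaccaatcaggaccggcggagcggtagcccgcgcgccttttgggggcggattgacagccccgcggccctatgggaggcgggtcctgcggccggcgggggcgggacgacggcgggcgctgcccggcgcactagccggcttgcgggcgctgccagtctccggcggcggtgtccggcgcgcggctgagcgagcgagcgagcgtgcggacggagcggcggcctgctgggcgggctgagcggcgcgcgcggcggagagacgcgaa
Cdkn1a, chr20:7150682-7150981, plus strand: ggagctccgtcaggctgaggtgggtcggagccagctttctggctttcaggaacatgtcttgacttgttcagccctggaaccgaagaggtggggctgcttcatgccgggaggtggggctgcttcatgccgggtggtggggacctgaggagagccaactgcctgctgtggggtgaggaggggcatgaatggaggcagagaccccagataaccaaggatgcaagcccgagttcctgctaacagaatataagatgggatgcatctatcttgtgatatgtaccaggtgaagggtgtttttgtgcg

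Values are quantile-normalized log2 intensities, 1 array per rat. The share of spots well above background ran from 58.6% to 83.9% per array, lowest in NS rats 8 and 9. Arrays that share a scan record in their headers were taken as 1 slide: slide 1 held MT rats 1, 3, 4 and 5, slide 2 held MT rat 2 with NS rats 6, 7 and 10, and slide 3 held NS rats 8 and 9. Slide and group could therefore be separated only within slide 2, where 1 MT rat met 3 NS rats. MT rat 3 had the highest value of the 10 rats for 17.2% of all RNAs and the lowest for 21.2%. Marker mRNAs of neurons (6 of 7 listed), oligodendrocytes (7 of 7) and astrocytes (5 of 6) passed the filter. Of 5 lumbar position genes listed, only Hoxd10 was matched to a probe. On average, neutrophil marker mRNAs (5 tested) lay above the mean of all rats in every MT rat, by 0.33 to 0.59 on the log2 scale, and below it in every NS rat, by -0.66 to -0.33. Of these 5, Ngp was dim, well above background on 4 MT arrays and 1 NS array, so it passed the filter mainly through the MT group. Microglial markers (7 tested) ran from -0.52 to 0.07 around the mean in MT rats and from -0.10 to 0.41 in NS rats. In bulk tissue, fewer cells of a type and less RNA per cell cannot be told apart.

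None of the 8 mRNAs met the study's screening criteria, which ask for a linear fold over 1.5 and an unadjusted P under 0.05 and were met by 2.71% of all RNAs tested (342 RNAs, or 1.72%, upward and 199, or 0.999%, downward in MT). By limma with Benjamini-Hochberg adjustment over all RNAs, 0 of the 8 passed an adjusted p of 0.05, beside 0.201% of all RNAs, and 1 of the 8, Errfi1, had an unadjusted P below 0.05, beside 16.3%. The groups did not overlap for that mRNA alone, beside 5.61% of all RNAs (3.31% with MT below NS). The SD was larger among MT than among NS rats for all but Errfi1 (0.05 in MT and 0.11 in NS). The gap was small for Nr3c1 (0.15 and 0.13) and Pdk4 (0.74 and 0.65). Fkbp5, Tsc22d3, Zbtb16, Pdk4 and Cdkn1a were highest in MT rats 3 and 1, above every NS rat, and lower in MT rats 2, 4 and 5.

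**Figure D1:**
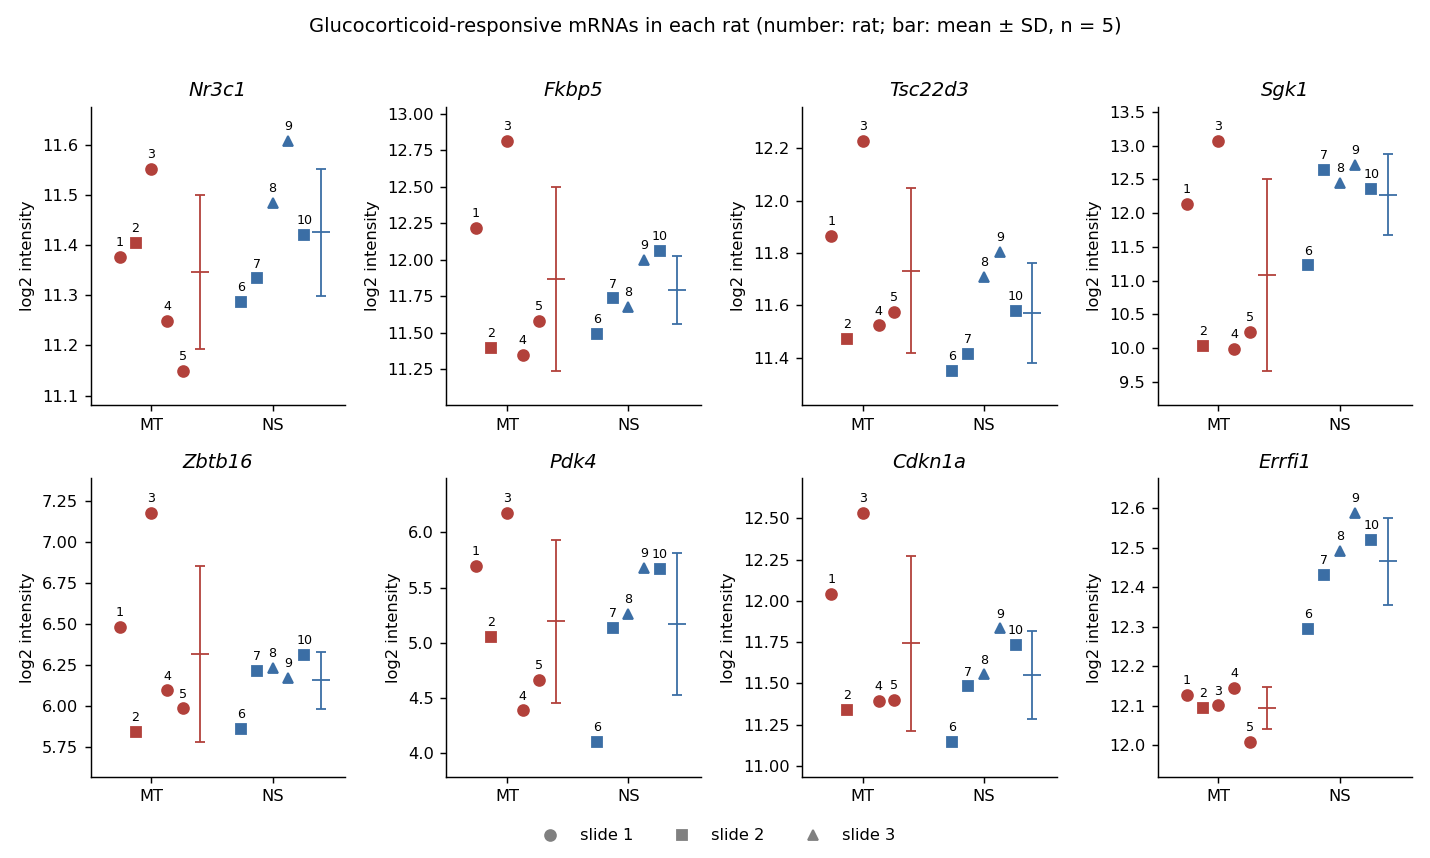
Quantile-normalized log2 intensity of each mRNA in the 5 MT and 5 NS rats, each point labelled with the rat number and shaped by slide, with the mean and SD of each group beside it (each panel has its own axis, which does not start at 0). MT rats 1 and 3 sit above the other MT rats for Fkbp5, Tsc22d3, Sgk1, Zbtb16, Pdk4 and Cdkn1a, and the Errfi1 values of MT rats all lie below those of NS rats.

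Nr3c1, the receptor itself, lay on the log2 scale at 11.38, 11.40, 11.55, 11.25 and 11.15 in MT rats 1 to 5. In NS rats 6 to 10 it lay at 11.29, 11.33, 11.48, 11.61 and 11.42. The groups overlapped, and the mean difference was a log2 fold change of -0.08 ± 0.09 (SE, n = 5 and 5), with a 95% interval from -0.29 to 0.13 and a limma adjusted p of 0.692. The exact two-sided permutation p was 0.397. The whole interval lay within a linear fold of 1.5 in either direction.

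Fkbp5 encodes a co-chaperone that lowers the receptor's affinity for the hormone and is itself induced by it. Its log2 intensity was 12.22, 11.40, 12.81, 11.35 and 11.58 in MT rats 1 to 5. NS rats 6 to 10 gave 11.49, 11.73, 11.68, 12 and 12.06. MT rats 1 and 3 were above every NS rat and MT rats 2 and 4 below every NS rat, so the means differed by a log2 fold change of only 0.08 ± 0.27 (SE), adjusted p = 0.906 by limma. The SD was 0.63 among MT rats and 0.23 among NS rats (n = 5 each).

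Tsc22d3, also called GILZ, encodes a leucine zipper protein that mediates anti-inflammatory effects of the hormone. It lay on the log2 scale at 11.87, 11.47, 12.23, 11.52 and 11.57 in MT rats 1 to 5. The NS rats 6 to 10 lay at 11.35, 11.41, 11.71, 11.80 and 11.58. MT rats 1 and 3 were again the highest of all 10 rats, and the log2 fold change was 0.16 ± 0.16 (SE), adjusted p = 0.629 by limma.

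Sgk1, a kinase that regulates ion channels and transporters and is induced by glucocorticoids and mineralocorticoids, had the widest spread of the 8. Its log2 intensity was 12.14, 10.02, 13.07, 9.98 and 10.23 in MT rats 1 to 5. The corresponding values of NS rats 6 to 10 were 11.22, 12.64, 12.45, 12.71 and 12.36. MT rats 2, 4 and 5 lay below every NS rat, MT rat 1 within the NS range and MT rat 3 above every NS rat. The MT mean was 11.09 ± 1.42 (SD) and the NS mean 12.28 ± 0.60. Their difference, -1.19 ± 0.62 (SE) in log2 or a linear fold of 2.28, did not pass the test (unadjusted P = 0.0855, adjusted p = 0.372 by limma, exact permutation p = 0.127), and its 95% interval ran from -2.57 to 0.20. Without MT rat 3 it was -1.68, with an unadjusted P of 0.00788 and an adjusted p of 0.193, which meets the study's criteria. MT rat 2, the only MT rat on slide 2, was lower by 2.05 on the log2 scale than the mean of the 3 NS rats there.

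Zbtb16 and Pdk4 gave the dimmest spots of the 8, with background-subtracted intensities of 29.8 to 170.3 and 18.5 to 87.8 before normalization, where noise weighs more. Zbtb16, a zinc finger transcription factor strongly induced by glucocorticoids in many cells, lay on the log2 scale at 6.48, 5.84, 7.18, 6.10 and 5.99 in MT rats 1 to 5. In NS rats 6 to 10 it lay at 5.86, 6.21, 6.24, 6.17 and 6.32. Its log2 fold change was 0.16 ± 0.23 (SE), adjusted p = 0.759 by limma.

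Pdk4 encodes a kinase that shuts off pyruvate dehydrogenase and so spares glucose. Its log2 intensity was 5.69, 5.05, 6.18, 4.39 and 4.66 in MT rats 1 to 5. In NS rats 6 to 10 it was 4.10, 5.13, 5.26, 5.68 and 5.67. The groups had nearly the same mean, with a log2 fold change of 0.02 ± 0.40 (SE), adjusted p = 0.980 by limma, but the interval from -0.86 to 0.91 leaves room for sizeable differences in either direction.

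Cdkn1a encodes the cell cycle inhibitor p21. It lay on the log2 scale at 12.04, 11.34, 12.53, 11.39 and 11.40 in MT rats 1 to 5. The values of NS rats 6 to 10 were 11.14, 11.48, 11.55, 11.83 and 11.73. The order of the MT rats was close to that of Fkbp5, with rats 3 and 1 on top, and the log2 fold change was 0.19 ± 0.24 (SE), adjusted p = 0.714 by limma.

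Errfi1, also called Mig6, encodes a feedback inhibitor of EGF receptor signalling. Its log2 intensity was 12.13, 12.09, 12.10, 12.14 and 12.01 in MT rats 1 to 5. Those of NS rats 6 to 10 were 12.29, 12.43, 12.49, 12.59 and 12.52. All 5 MT rats lay below all 5 NS rats, and MT rats 1 and 3 did not stand out. The log2 fold change was -0.37 ± 0.07 (SE), a linear fold of 1.29 and so short of the study's fold, with an unadjusted P of 0.000346, an adjusted p of 0.0689 by limma and an exact permutation p of 0.00794, the smallest that 5 against 5 rats can give. The difference was -0.32 without slide 3 (adjusted p = 0.173 by limma) and -0.35 with the slide as a random block (adjusted p = 0.373 by limma). Within slide 2, where 1 MT rat met 3 NS rats, it was -0.32. Slide and group could be separated only there. Whether neutrophil and microglial markers, which moved with the groups, had a part in the difference was not tested.

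**Figure D2:**
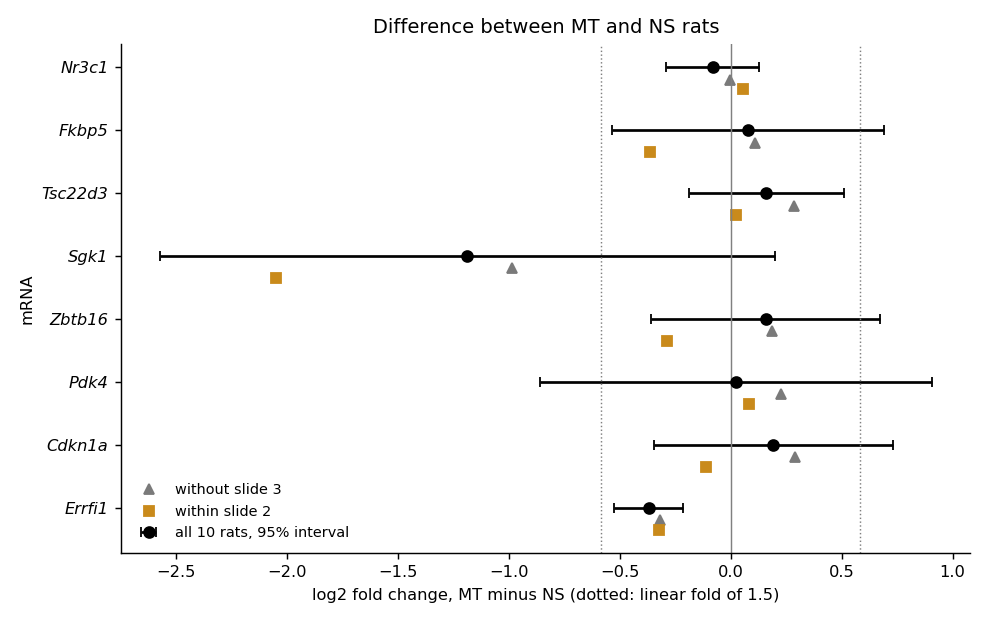
Log2 fold change (MT minus NS) of each mRNA: black circles with 95% intervals for all 10 rats, grey triangles without slide 3, and ochre squares for the comparison within slide 2 (1 MT rat against 3 NS rats), with dotted lines at a linear fold of 1.5. Of the 8 intervals, that of Errfi1 alone does not reach 0, and Nr3c1, Fkbp5, Zbtb16 and Cdkn1a change sign within slide 2.

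The spread among MT rats was large compared with that of other RNAs. Ranked by the SD of the 5 MT rats among all RNAs tested, Sgk1 stood at percentile 99.7, Pdk4 at 98.1, Fkbp5 at 97.0, Zbtb16 at 95.5, Cdkn1a at 95.2 and Tsc22d3 at 82.6. Nr3c1 was near the middle, at 46.1, and Errfi1 was among the steadiest RNAs, at 6.03. Among RNAs whose mean log2 intensity lay within 1 of the mRNA's own, the first 6 stood at 99.9, 97.2, 99.1, 94.7, 98.3 and 93.4 in the same order. In the NS group the percentiles of those 6 were lower, from 40.6 for Zbtb16 to 88.3 for Pdk4. Without MT rat 3, the MT percentiles were still 99.5 for Sgk1, 96.6 for Pdk4 and 92.1 for Fkbp5, and 66.1 for Tsc22d3. MT rats 1, 3, 4 and 5 were hybridized on the same slide, so most of the MT spread lay within slide 1. The difference in spread between the groups was not tested.

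**Figure D3:**
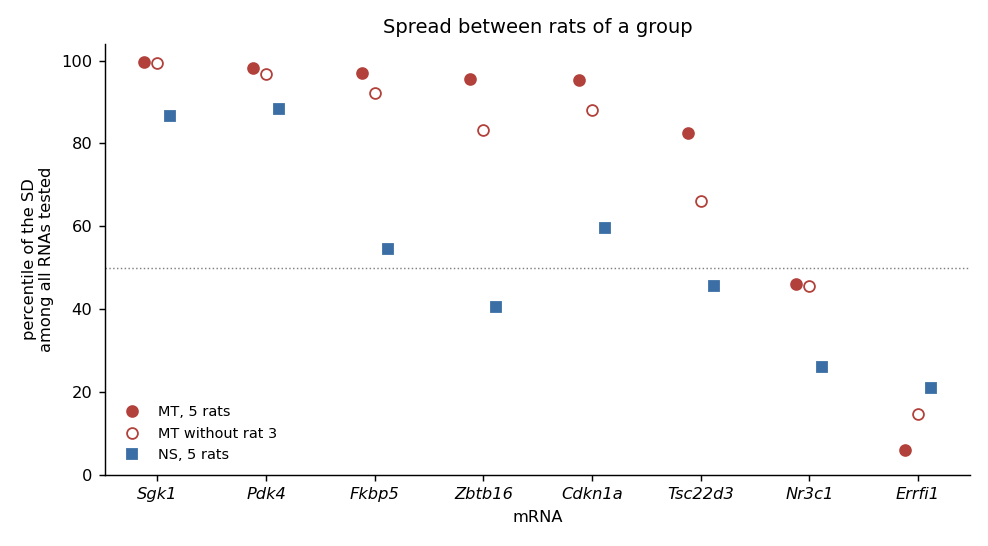
Percentile, among all RNAs tested, of the SD of each mRNA between rats of a group: filled circles for the 5 MT rats, open circles for MT without rat 3, squares for the 5 NS rats, with a dotted line at percentile 50. Sgk1, Pdk4, Fkbp5, Zbtb16 and Cdkn1a lie above 95 in the MT group, and Errfi1 lies at 6.03.

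The same rats were high or low for most of the 8 mRNAs. MT rat 3 was the highest of the 10 rats for 6 of the 8, beside 17.2% of all RNAs, and the highest MT rat for 7 of the 8, beside 30.8%. MT rats 1 and 3 were the highest pair of all 10 for 5 of the 8 (Fkbp5, Tsc22d3, Zbtb16, Pdk4 and Cdkn1a), beside 7.45% of all RNAs, a pairing picked out after the values were seen. In the NS group, rat 6 was the lowest for all 8 mRNAs, beside 16.9% of all RNAs. The deviation of MT rat 3 from the mean of all rats was 0.98 for Fkbp5, 1.00 for Pdk4, 0.94 for Zbtb16, 0.89 for Cdkn1a, 0.57 for Tsc22d3 and 1.39 for Sgk1 on the log2 scale, but 0.17 for Nr3c1 and -0.18 for Errfi1.

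**Figure D4:**
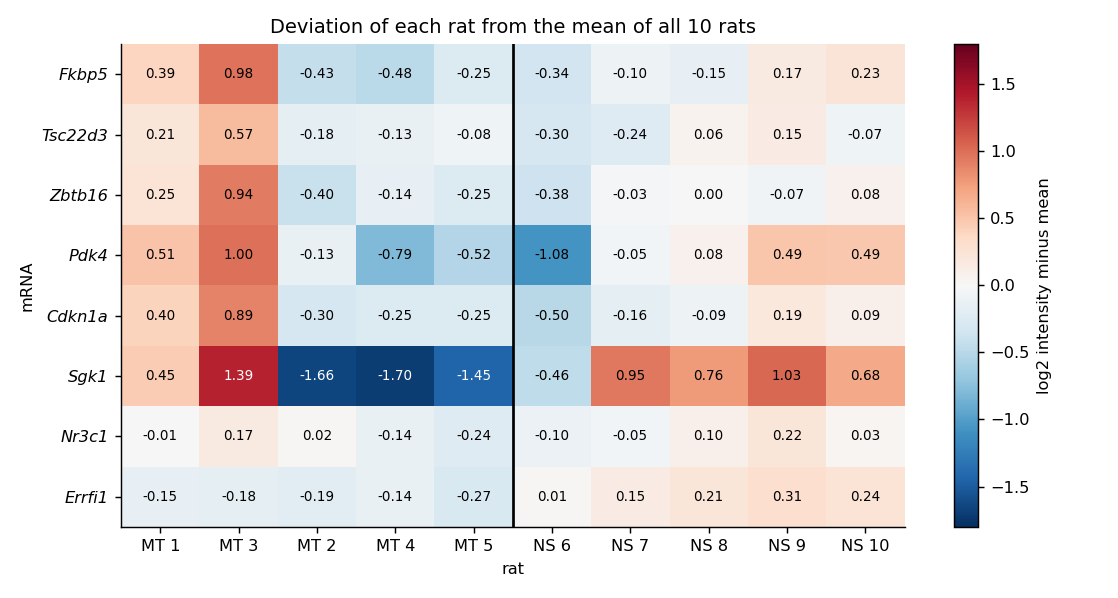
Log2 intensity of each mRNA in each rat minus its mean over all 10 rats, in colour (red above, blue below) and as printed values, with MT rats left and NS rats right of the black line. The columns of MT rats 1 and 3 are red for the upper 6 mRNAs, those of MT rats 2, 4 and 5 blue, and that of NS rat 6 is the bluest of the NS group.

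Pearson correlations of log2 intensity over the 10 rats were computed for all 28 pairs of the 8 mRNAs. In a permutation test with p adjusted over the 28 pairs, 16 pairs passed 0.05, and by Spearman's rho 15. The share of such pairs among all RNAs was not computed, but 2.44% of all RNAs had r above 0.8 with Fkbp5. The test treated the 10 rats as exchangeable, although they fall into groups and slides. Of the passing pairs, 10 were those among Fkbp5, Tsc22d3, Zbtb16, Pdk4 and Cdkn1a. Their r ran from 0.781 to 0.964 and rho from 0.758 to 0.964, with adjusted permutation p of at most 0.011 for r and 0.032 for rho. These 5 are the mRNAs highest in MT rats 1 and 3 and were grouped after their values were seen, so high r among them is partly built in. The closest pair was Fkbp5 with Cdkn1a (r = 0.964, rho = 0.927, permutation p = 5e-05 and 0.00047). Without the 2 rats farthest from the median of the first gene, mostly MT rats 1 and 3, r of these 10 pairs ran from 0.515 (Tsc22d3 with Zbtb16) to 0.892. It ran from 0.796 to 0.976 around the group means and from 0.841 to 0.975 around the slide means.

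Sgk1 gave r from 0.56 to 0.76 with the same 5 mRNAs, of which 4 pairs passed (all but that with Tsc22d3) and 3 by rho. Around the group means its r was higher, from 0.885 to 0.964, and around the slide means it ran from 0.763 to 0.907. Nr3c1 passed with Pdk4 (r = 0.774, adjusted permutation p = 0.02) and with Sgk1 (r = 0.722, adjusted permutation p = 0.0379). With the other 4 targets of the 5, Nr3c1 gave r from 0.519 to 0.636 and did not pass. Errfi1 gave r from -0.126 to 0.226 with the 5, with no pair past the threshold. Fkbp5 and Cdkn1a lie on the same chromosome, with 25 annotated genes between them, 7 of which were tested. Those 7 gave r with Fkbp5 from -0.438 (Lhfpl5) to 0.497 (Srpk1), none near that of Cdkn1a.

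Other genes known to be induced by glucocorticoids were read from a list of 41, chosen with earlier results of these data known, of which 35 were tested. Of these, 1 rose and 2 fell by the study's criteria (8.57% in all, beside 2.71% of all RNAs), and 13 had an unadjusted P below 0.05 (37.1%, beside 16.3%). Those 13 went in both directions, with Cdkn1c, Per1, Ddit4 and Nedd9 lower in MT and the others higher. Of the 35, 18 had a positive log2 fold change (51.4%, beside 49.8% of all RNAs), with a median of 0.05. By limma 0 of the 35 passed an adjusted p of 0.05. The 8 members had a median of 0.05 as well, and all RNAs one near 0. Angptl4, an inhibitor of lipoprotein lipase, rose by 0.70 on the log2 scale (adjusted p = 0.122 by limma). Cdkn1c, the cell cycle inhibitor p57, fell by 0.74 (adjusted p = 0.132), and the clock gene Per1 fell by 0.71 (adjusted p = 0.183). The other 2 of the 4 smallest P values belonged to log2 fold changes of 0.45 for Arl4d, a small GTPase (adjusted p = 0.0689), and 0.29 for Klf2, a transcription factor of endothelial cells (adjusted p = 0.130), both below the fold of the criteria.

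The same 35 were compared with Fkbp5 from rat to rat. The Pearson r with Fkbp5 was above 0.8 for 8 of the 35 (22.9%), beside 2.44% of 19868 RNAs, and its median was 0.381, beside -0.039. The 8 were Sult1a1 (0.94), Fam107a (0.93), Ptgds (0.92), Mertk (0.91), Mt2A (0.91), Map3k6 (0.85), Klf15 (0.84) and Mt1a (0.82). Ptgds makes prostaglandin D2, Mertk is a phagocytic receptor, Mt1a and Mt2A are metal-binding metallothioneins and Klf15 is a transcription factor of metabolism. Sult1a1, a sulfotransferase, lay on the log2 scale at 10.59, 9.37, 11.45, 9.05 and 9.95 in MT rats 1 to 5 and at 9.55, 10.09, 9.68, 9.82 and 10.00 in NS rats 6 to 10. Mt2A lay at 15.94, 14.84, 16.32, 14.72 and 15.17 in MT rats and at 14.54, 15.45, 15.29, 15.41 and 15.16 in NS rats. Both were highest in MT rats 3 and 1 and low in MT rats 2 and 4, as Fkbp5 was. Without MT rats 1 and 3, 5 of the 35 exceeded 0.8 (14.3%, beside 1.34% of all RNAs). Klf15 was the only one in both sets, and the other 4 were Ddit4, Nedd9, Arrdc2 and Gpd1. These correlations are descriptions over 10 rats that share slides, with no test.

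**Figure D5:**
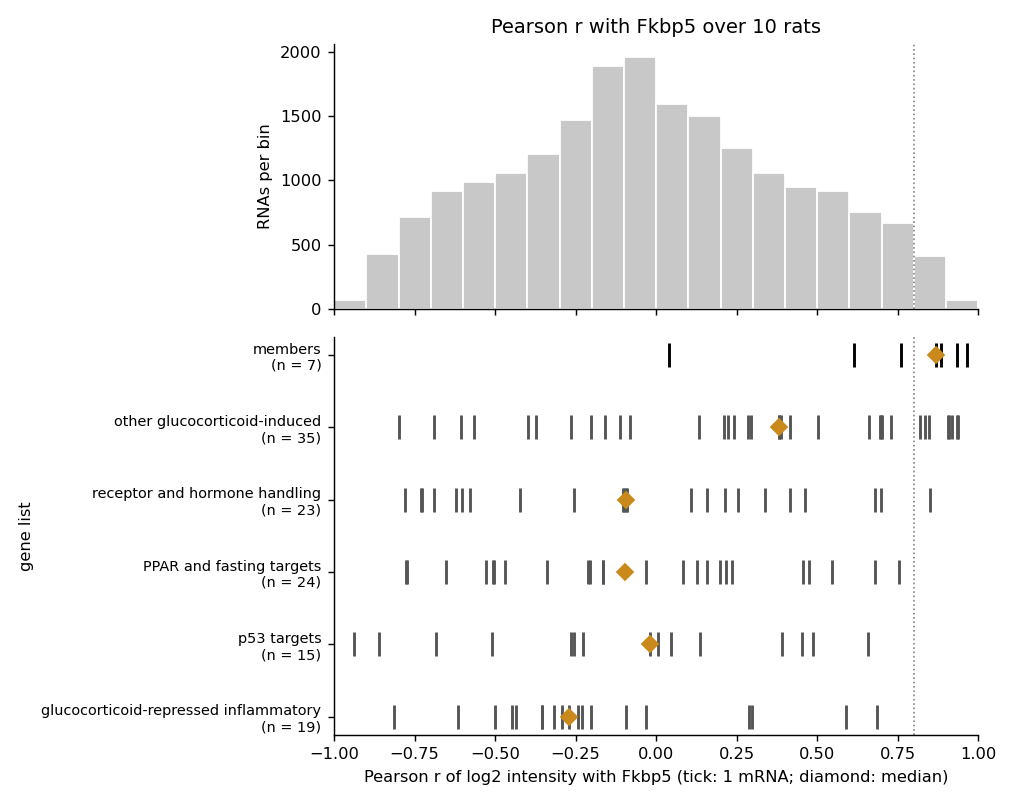
Top, number of RNAs per bin of 0.1 of Pearson r of log2 intensity with Fkbp5 over the 10 rats. Bottom, the same r for each mRNA of the named lists (ticks) with the list median (diamonds) and a dotted line at 0.8, which 8 of the 35 other glucocorticoid-induced genes and 4 of the 7 other members exceed.

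Of 23 genes of receptor function and hormone handling, 0 met the study's criteria by limma, beside 2.71% of all RNAs, and 4 had an unadjusted P below 0.05, a share of 17.4% near the 16.3% of all RNAs. These 4 had log2 fold changes of 0.34 for the co-chaperone Stip1 (adjusted p = 0.167), 0.26 for the chromatin remodeller Smarca4 (adjusted p = 0.197), 0.21 for the coactivator Crebbp (adjusted p = 0.211) and 0.21 for the chaperone Hsp90ab1 (adjusted p = 0.301). Hsd11b1, which regenerates active hormone, had a log2 fold change of -0.13, Hsd11b2, which inactivates it, -0.22, and Nr3c2, the mineralocorticoid receptor, -0.15. The median over the list was 0.08. The drug transporter Abcb1a was the only one of the 23 with r above 0.8 with Fkbp5 (0.85).

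Inflammatory genes known to be repressed by glucocorticoids mostly had higher means for MT, though by the median over the list the rats overlapped. Of 19 tested, 17 had a positive log2 fold change (89.5%, beside 49.8% of all RNAs), with a median of 0.58. By the study's criteria 4 rose (21.1%, beside 1.72%) and 0 fell, and 5 had an unadjusted P below 0.05 (26.3%, beside 16.3%), while 0 passed an adjusted p of 0.05 by limma. Those that rose were the matrix protease Mmp9, the endothelial adhesion molecule Sele (1.74), Nos2 (1.39), which makes nitric oxide, and the cytokine Il1a (1.27). Their adjusted p by limma ran from 0.211 to 0.280. The list was chosen with earlier results of these data known, and the study itself lists Mmp9 and Sele among its most up-regulated mRNAs. The counts for this list are therefore partly built in. Nos2 was well above background on only 3 of the 5 NS arrays, and its difference shrank to 0.49 when slide 3 was left out. Vcam1, another adhesion molecule, had a log2 fold change of 0.36 (adjusted p = 0.212). The mean of the neutrophil marker mRNAs was higher in all MT rats than in all NS rats, and their part in these differences was not tested. NS rat 10, with a median deviation of -1.98 over the 19, was far the lowest, and MT rat 3 lay at 0.12. The median r with Fkbp5 was -0.269, beside -0.039 of all RNAs, and -0.357 around the group means, beside -0.051. Without MT rats 1 and 3 it was -0.797, beside 0.028 of all RNAs. Of the MT rats then left, 2 and 4 lay below every NS rat for Fkbp5, so that value also holds the difference between the groups. NS rat 10, far the lowest for the list, had the highest Fkbp5 of the 8 rats left (12.06), so the value may rest largely on that rat. These correlations were not tested.

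Lists were also read for the other known inputs to Cdkn1a and Pdk4. Of 15 other p53 targets, 0 met the criteria by limma, beside 2.71% of all RNAs, with 4 at an unadjusted P below 0.05 (26.7%, beside 16.3%): Fas (-0.47), Sesn2 (0.41), Plk2 (0.15) and Ccng1 (-0.18). None of the 15 had r above 0.8 with Fkbp5, and 2 had r below -0.8, Aen (-0.94) and Plk3 (-0.86), which is 13.3% beside 2.49% of all RNAs. Their r with Cdkn1a itself is not given here, and the part of p53 in the Cdkn1a values was not tested. Of 24 genes of PPAR signalling and fasting metabolism, 5 had an unadjusted P below 0.05 (20.8%, beside 16.3%) and 1 rose (4.17%, beside 2.71% called in either direction), the fatty acid binding protein Fabp4 (0.63, adjusted p = 0.294). Ehhadh, an enzyme of peroxisomal fatty acid oxidation, had a log2 fold change of -0.50 (adjusted p = 0.122) with no overlap of the groups, and the pyruvate dehydrogenase kinase Pdk2 and the receptor Ppard had 0.19 and 0.16.

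Among 12988 mRNAs, those most like each of the 8 by Pearson r over the 10 arrays included Txndc11 (0.93) for Nr3c1, and were Fibin (0.98) and Tpd52 (0.97) for Fkbp5. For Tsc22d3 they were Tmod2 (0.99) and Kcna6 (0.98), for Sgk1 Rpe65 (0.97) and Acer2 (0.97), and for Zbtb16 Id4 and Tmem88b (0.96 each). Pvalb, the calcium buffer parvalbumin of fast-spiking neurons, was among the 2 for both Pdk4 (0.93, after Sult1d1 at 0.94) and Cdkn1a (0.97, after Cdo1 at 0.98). For Errfi1 they included Zfp317 (0.97), whose log2 fold change was -0.34.

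Some marker mRNAs of tissue make-up, picked out after their values were seen, also moved with the order of the MT rats. Hoxd10, a gene of lumbar position, deviated from the mean of all rats by -1.09 on the log2 scale in MT rat 3, by -0.03 in MT rat 1 and by 0.58, 0.47 and 0.76 in MT rats 2, 4 and 5, and its r with Fkbp5 was -0.84. In NS rats Hoxd10 deviated by -0.54 to 0.49. The 3 motor neuron markers tested had a mean deviation of -0.39 in MT rat 3, from 0.10 to 0.47 in the other MT rats and from -0.598 to 0.315 in NS rats. NS rats 7 and 10 thus lay below MT rat 3. For the 5 markers tested of peripheral nerve and dorsal root ganglion the mean deviation was -0.305 in MT rat 3, 0.007 in MT rat 1 and from 0.185 to 0.421 in the other 3. In NS rats it ran from -0.488 to 0.535, with NS rats 7 and 9 below MT rat 3. The mean of the 3 B and T cell markers tested was at 0.78 in MT rat 3, 0.28 in MT rat 1, from -0.64 to -0.42 in the other 3 and from -0.515 to 0.541 in NS rats. Their r with Fkbp5 was 0.79 for Cd3d and 0.69 for Cd3e, both of T cells, but 0.12 for Cd79b, the only B cell marker tested. Cd79b was dim, well above background on 3 MT and 2 NS arrays. Oligodendrocyte and astrocyte markers varied little among MT rats, from -0.07 to 0.02 and from -0.04 to 0.01. The part of the level of the cord sampled, or of these cell types, in the spread of the glucocorticoid-responsive mRNAs was not tested.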

How the data were processed

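Total RNA of the lumbar enlargement was measured on 10 one-colour rat lncRNA and mRNA arrays. Spots were read by the authors with Agilent Feature Extraction 11.0.1.1, and their linear intensity after background subtraction was deposited with flags per spot. They also deposited a table of quantile-normalized log2 values, used here as an alternative. From the intensities, values were floored at 1, converted to log2, quantile normalized and averaged by probe after outlier spots were left out. Probes with more than 50% of spots well above background on at least 5 arrays were kept, and probes of a gene were averaged. limma 3.58.1 (R 4.3.3, with version 1.17.8 of the data.table package) compared MT with NS over 19928 RNAs, with Benjamini-Hochberg adjustment over all of them. The study's fold limit, worded as a log2 value, was applied to the linear fold. P values measure the spread between these rats.

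Each member was also tested by a two-sided exact permutation over the 252 assignments of rats, and correlations by 100000 permutations. RefSeq's GRCr8 annotation named 14274 of 15323 mRNA probes, and the array headers name an older build, so only promoter windows carry positions, those of GRCr8. Probe sequences were not used here. The 8 members and all lists were chosen with earlier results of these data known, including the cell marker lists (neuron, motor neuron, lumbar position, oligodendrocyte, astrocyte, microglia, endothelial, neutrophil, erythrocyte, B and T cell, skeletal muscle, meningeal fibroblast, and peripheral nerve and dorsal root ganglion). Named genes were the 8 members, the 4 genes of smallest P in each pathway list and the 2 mRNAs most like each member, of which 1 for Nr3c1 and 1 for Errfi1 are not reported here. Per1, Il1a, Ngp, Cd3d, Cd3e, Cd79b, the hormone-handling enzymes, the genes with r beyond 0.8 in size and Hoxd10 were named after their values were seen.

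The fit was tested on simulated arrays. The alternatives tried were 75th percentile scaling, normexp (offset 50) on the median signals, the deposited table, other filters, outlier spots kept, the methods' Student test, a variance trend, a fixed or random block for the slide, and leaving out slide 3 or each rat. Figures and correlations used Python 3.11.15, pandas 2.3.3, scipy 1.17.1 and matplotlib 3.10.9.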

Additional observations from a re-analysis of the deposited data

Results flagged for a closer look

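One of the 16 sets of 5 values (8 mRNAs in 2 groups) held a value far from the others. Sgk1 in NS rat 6 lay at 11.22 on the log2 scale, 1.14 below the nearest NS rat, a gap of 0.765 of the range of the group. Chance gives such a gap in about 1 of 20 sets. The same rat was the lowest of the NS group for the other 7 mRNAs too, without passing that limit.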

How the results depend on the processing

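No paired analysis was possible because the MT and NS rats share no replicate numbers. Tsc22d3, Sgk1 and Errfi1 kept the direction of their log2 fold change under all 21 alternatives. With the slide as a fixed block, Nr3c1 turned to 0.0567, Fkbp5 to -0.36, Zbtb16 to -0.29 and Cdkn1a to -0.11, and with the slide as a random block Fkbp5 turned to -0.14 and Zbtb16 to -0.0624. With 1 rat left out, Fkbp5 ran from -0.16 (without MT rat 3) to 0.21, turning also without MT rat 1. Zbtb16 ran from -0.0567 (without MT rat 3) to 0.28, Cdkn1a from -0.00497 (without MT rat 3) to 0.29 and Pdk4 from -0.24 (without NS rat 6) to 0.23, turning also without MT rats 1 and 3. None of these 5 passed the test in any setting, and the cause of the turns was not tested.

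The number of the 8 mRNAs past the study's criteria was 0 under the alternatives that kept all 10 rats or left out slide 3, and leaving out 1 rat gave 0 to 1, the 1 being Sgk1 without MT rat 3. Errfi1 was the 1 member past an adjusted p of 0.05 with normexp background (0.0413), the filter on all arrays (0.0385), the Student test (0.0493) and the variance trend (0.0385), and 0 passed under the other alternatives, the leave-one-out fits included. The adjusted p of Errfi1 ran from 0.0385 (variance trend) to 0.373 (random block), and it was larger still with the fixed block, which rests on 1 MT rat.

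RNAs past the study's criteria numbered 541, and 194 with normexp background, 893 without a filter, 338 with the filter on all arrays, 327 with the fixed block, 321 with the random block and 418 to 856 when 1 rat was left out. Scaling by the 75th percentile moved the median log2 fold change of all RNAs to 0.08 and the share of higher calls to 86.2%, beside 342 of 541. That scaling gave 5 called of the glucocorticoid-induced list, 1 of the p53 list and 2 of the PPAR list. Normexp background and the Student test gave 0 of the PPAR list, and the filter on all arrays gave 2 of the repressed inflammatory list. The fixed block gave 1 of the receptor list, 1 of the inflammatory, 2 of the p53 and 0 of the PPAR list, the random block 1 of the p53 and 0 of the PPAR list, and leaving out slide 3 gave 2 of the p53 list. Leaving out 1 rat gave 0 to 1 for the receptor, p53 and PPAR lists, 3 to 7 for the induced list and 3 to 9 for the inflammatory list, the highest both without NS rat 6. Each member had 1 probe, so the alternative of single probes gave no other values. Dim spots limit Zbtb16 and Pdk4, whose intensities were smallest.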
